A study of Mus musculus with 53 samples.

Results

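Interferon-stimulated genes were followed in tumors and healthy tissue of mice with conditional alleles of Mad2 (Mad2l1), a gene of the spindle assembly checkpoint, and of p53 (Trp53). A list of 44 gene symbols defined the set. Of these, 43 had a probe named with the symbol, among 19057 genes with a named probe in the whole series; Ifi44 was not analysed here. A gene was kept in a tissue when its detection score, which is 1 minus the p-value of its signal against negative control beads, was over 0.95 on at least 5 arrays of that tissue, and the probe with the highest mean signal stood for the gene. This kept 36 members in liver, of 11567 genes tested, and 34 in thymus, of 10354. Oas3 and Mx1 were kept in liver only, and Ifit1, Ifih1, Oas1a, Xaf1, Gbp6, Iigp1 and Tgtp1 in neither tissue. Probes of the Oas1 genes and of Ifit3 may also bind near-identical copies of their genes.

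RNA was measured on Illumina bead arrays, on which each probe reports a fluorescence intensity, in 53 samples of mice of B6-129Sv mixed background. Liver tumors came from Mad2f/f p53f/f Alb-Cre+ mice (21 tumors of 16 animals) and from Mad2f/f p53f/+ Alb-Cre+ mice (8 tumors of 5 animals), in which the albumin promoter drives Cre in developing hepatocytes. T-cell acute lymphoblastic lymphomas (T-ALL, 9 samples) came from Mad2f/f p53f/f Lck-Cre+ mice, in which the Lck promoter drives Cre in immature T cells, and 10 healthy livers and 5 healthy thymi came from wild type mice, so that genotype and tumor state change together in every comparison with healthy tissue. The labels give no ages, and the tumors were pieces of tissue, which hold other cells beside the tumor cells. Liver tumor 12 had no signal column and T-ALL 5 was nearly blank, with 4.56% of probes detected against 30.2% to 37.5% on the other T-ALL arrays, which left 51 arrays: 20 and 8 liver tumors of the 2 genotypes, 10 healthy livers, 8 T-ALLs and 5 healthy thymi. Liver tumor 13 (28.3% of probes detected) and T-ALL 4 (30.2%) were dim, and healthy liver 1 stood apart from the other healthy livers. For T-ALL 7 the signal and the authors' log2 values ranked the probes differently (Spearman correlation 0.786). Counts of called members against healthy tissue are therefore also given without these arrays. The spreads and correlations among tumors are given with them only. Hepatocyte markers were present in both liver tumor genotypes, with a summed intensity of 52300 to 81800 against 23000 to 94000 in healthy liver, although Alb itself, by its probe, was detected on no healthy liver and no p53f/+ tumor. Of the thymocyte markers, all 7 that were measured were detected in T-ALL, with a summed intensity of 8230 to 33800 against 40100 to 44900 in healthy thymus.

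Interferons are secreted proteins that cells release on sensing foreign or misplaced nucleic acid, and that lymphocytes release on activation. Type I and type III interferons (alpha, beta and lambda) act through the kinases Jak1 and Tyk2 on a factor that holds Stat2 and Irf9 and binds the interferon-stimulated response element, whose core is a pair of GAAA repeats. Type II interferon (gamma) acts on promoters with a TTC and GAA palindrome, and through Irf1. The genes so induced encode sensors of nucleic acid, regulators that amplify or end the response, antiviral effectors, GTPases that attack the vacuoles of intracellular microbes, and chemokines that attract T cells. DNA outside the nucleus, a possible consequence of chromosome missegregation, is known to be able to start this response through Cgas and Sting1.

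Promoter windows from RefSeq (build GRCm38.p6, from 250 bases before to 50 bases after the start of a gene) were found for 31 of the 44 members. The letters GAAA, any 2 bases and GAAA (searched on both strands, so that TTTC, any 2 bases and TTTC is the same motif) were present in the windows of 19 members, or 61.3%, against 3.99% of 27025 genes with a window. The letters TTC, any 3 bases and GAA (which reads alike on both strands) were present in 8 members, or 25.8%, against 9.55% of all genes. The 2 motifs can share bases, as they do in Bst2. By role, the GAAA motif was present in 3 of 3 sensors, 5 of 6 GTPases, 8 of 15 effectors, 2 of 5 regulators and 1 of 2 chemokines. A match describes the letters and is not evidence that a factor binds there. Members with a window but without the GAAA motif, among them Oasl2, Cxcl9, Irf7 and Samd9l, are not shown. Shown here are stretches around the match for some of the members that hold it. They run 5′ to 3′ on the strand of the gene, with the bases of either motif in capitals. The genes are a ubiquitin-like regulator (Isg15), effectors (Oas1g, Ifit3, Rsad2, Bst2, Trim30a), GTPases (Gbp2, Igtp, Irgm1) and a chemokine (Cxcl10).
Isg15: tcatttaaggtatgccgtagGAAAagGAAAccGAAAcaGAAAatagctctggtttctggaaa
Oas1g: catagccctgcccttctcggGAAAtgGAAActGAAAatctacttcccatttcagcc
Ifit3: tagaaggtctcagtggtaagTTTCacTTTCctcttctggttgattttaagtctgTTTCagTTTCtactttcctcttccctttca
Rsad2: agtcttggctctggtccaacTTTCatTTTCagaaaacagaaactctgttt
Bst2: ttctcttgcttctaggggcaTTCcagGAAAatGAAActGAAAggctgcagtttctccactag
Trim30a: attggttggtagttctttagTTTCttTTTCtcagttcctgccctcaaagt
Gbp2: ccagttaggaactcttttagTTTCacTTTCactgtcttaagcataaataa
Igtp: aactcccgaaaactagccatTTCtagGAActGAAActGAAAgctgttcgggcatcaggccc
Irgm1: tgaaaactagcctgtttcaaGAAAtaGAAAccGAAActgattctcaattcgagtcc
Cxcl10: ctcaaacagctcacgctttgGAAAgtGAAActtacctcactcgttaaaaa
The stretches lie at chr4:156200855-156200916, chr5:120887596-120887651, chr12:26456543-26456592, chr8:71537567-71537628, chr7:104465200-104465249, chr11:48871415-48871470 and chr5:92349073-92349122 on the minus strand and at chr19:34583353-34583436, chr3:142620584-142620633 and chr11:58199491-58199551 on the plus strand. The first base of the GAAA motif lay 18 bases before the gene start in Oas1g, 30 in Irgm1, 34 in Igtp, 36 in Trim30a, 59 in Gbp2, 78 in Isg15, 120 in Rsad2, 130 in Bst2, 156 in Ifit3 and 213 in Cxcl10.

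Over the 5 groups, on a scale normalized across all 51 arrays, healthy thymus held the highest mean of 17 of the 36 members and T-ALL the lowest mean of 25. The other highest means lay in healthy liver (6), p53f/f liver tumors (5), p53f/+ liver tumors (4) and T-ALL (4), and the other lowest means in healthy liver (6) and p53f/+ liver tumors (5). This ranking was not made over all genes, so the counts do not set the members apart from other genes. They include Mx1 and Oas3, whose means lay near background. Oasl2, an oligoadenylate synthetase-like protein, is an example, with a mean log2 intensity of 5.31 in T-ALL, 5.49 in healthy liver, 6.70 and 6.97 in the p53f/+ and p53f/f liver tumors and 8.24 in healthy thymus (SD 0.707, 0.677, 1.03, 0.951 and 0.597). T-ALL and healthy liver, and the tumors of the 2 genotypes, lay within 1 SD of each other, while the steps from healthy liver to the tumors and from the tumors to healthy thymus exceeded the SD of either group. Gbp2, a guanylate-binding GTPase, ran from 8.33 in T-ALL over 9.04 in healthy liver, 9.22 in p53f/f and 9.63 in p53f/+ liver tumors to 11.37 in healthy thymus (SD 0.688, 1.34, 0.985, 0.862 and 0.0905), and only healthy thymus was separated from its neighbour by more than the SD of each. Ly6e, a lipid-anchored surface protein, was lowest in healthy liver at 12.15, followed by p53f/+ (13.31) and p53f/f (13.63) liver tumors, with healthy thymus (14.09) and T-ALL (14.11) alike within their spread (SD 0.408, 0.792, 0.486, 0.041 and 0.587). These intensities are of 1 probe per gene and do not rank genes against each other.

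**Figure D1:**
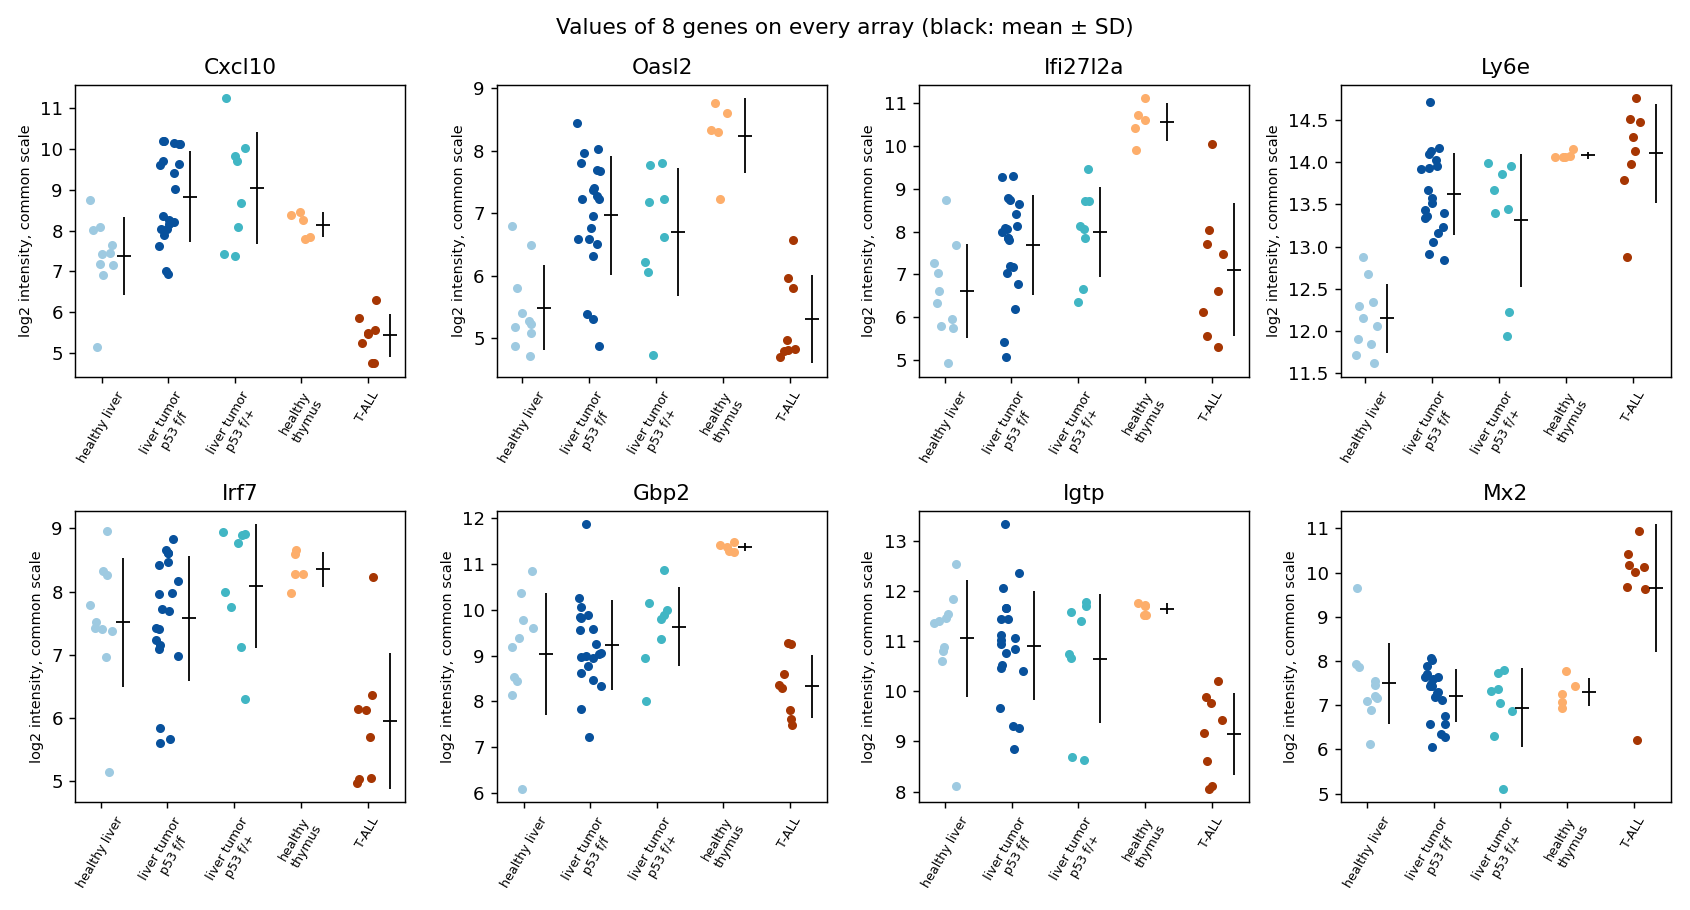
Log2 intensity of Cxcl10, Oasl2, Ifi27l2a, Ly6e, Irf7, Gbp2, Igtp and Mx2 on each of the 51 arrays (points, normalized across all arrays) by group, with the mean and SD in black. T-ALL has the lowest mean of Cxcl10, Oasl2, Irf7, Gbp2 and Igtp, Ly6e is lowest in healthy liver, and Mx2 is highest in T-ALL, where 1 sample (T-ALL 3) lies apart at 6.21.

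In liver tumors, 8 of 19 measured antiviral effectors and the chemokine Cxcl10 were higher than in healthy liver. The 8 include Mx1 and Trim30a, which were detected on no healthy liver. Of 5 interferon-inducible GTPases none was called, but 5 genes are too few to set against the share of all genes. Of the 36 measured members 11 were higher (30.6%) and 2 were lower, at an adjusted p under 0.05 in limma, against 14.7% higher and 14.2% lower of all 11567 genes tested. The median difference of the members was 0.22 on the log2 scale, against -0.01 over all genes, but 0.08 against 0 without healthy liver 1. Mx1, Trim30a and Oas3 were detected on no healthy liver and so could be kept only through the tumors; of the other 33 members 9 were higher and 2 lower. No member separated the groups without overlap, as 0.0951% of all genes did.

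Oas1g, a synthetase of the oligoadenylates that activate RNase L, had a log2 intensity of 6.82 at the lowest, 9.73 at the median and 10.83 at the highest among 28 liver tumors, against 6.76, 7.63 and 9.36 among 10 healthy livers. The difference was 1.51 ± 0.36 (SE; adjusted p = 0.00164), and a second probe of the gene gave 2.41. Most tumors lay above most livers, but the lowest tumor, liver tumor 29, lay beside the lowest liver. Cxcl10, a chemokine for activated T cells, ran from 6.86 over 8.77 to 11.19 in the tumors and from 5.12 over 7.37 to 8.68 in the livers, a difference of 1.5 ± 0.42 (adjusted p = 0.0068). The tumor median lay above the highest liver, and the lowest tumors lay inside the healthy range. Ly6e ran from 11.91 over 13.56 to 14.75 against 11.57 over 12.08 to 12.88, a difference of 1.42 ± 0.21 (adjusted p = 3.68e-06), and of the members it had the smallest p. Its 2 probes gave 1.42 and 1.45, and 20 of 20 p53f/f tumors, whose lowest was 12.85, lay above every liver but healthy liver 5.

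Oasl2 ran from 4.73 over 7.14 to 8.37 in the tumors and from 4.72 over 5.24 to 6.73 in healthy liver, where it was detected on 3 of 10 arrays, and the difference was 1.39 ± 0.32 (adjusted p = 0.00121). Ifit2, an RNA-binding protein that hinders viral translation, ran from 6.5 over 8.02 to 9.62 against 5.20 over 6.66 to 8.34, also 1.39 (± 0.35, adjusted p = 0.00286). Its second probe gave 0.43, which did not pass (adjusted p = 0.0843). Usp18, which removes Isg15 from proteins and blocks the interferon alpha and beta receptor, ran from 9.12 over 10.93 to 11.67 against 7.58 over 9.64 to 10.65, a difference of 1.19 ± 0.29 (adjusted p = 0.00198). The ranges of all 3 genes overlapped, with the tumor median above the healthy median by at least 1. The remaining members called higher with both groups detected were Ifi27l2a at 1.16 (adjusted p = 0.0255), Rsad2, or viperin, at 1.03 (adjusted p = 0.00148) and Eif2ak2, the RNA-activated kinase PKR, at 0.57 (adjusted p = 0.0211). The other 11 effectors were not called, from Oas2 at 0.92 and Ifit3 at 0.23 to Mx2 at -0.35 and Ifi35 at -0.45. Mx1, a dynamin-like GTPase, and Trim30a, a ubiquitin ligase, were detected on 7 and 11 of 28 tumors and no healthy liver (adjusted p = 0.0242 and 0.016), with mean levels near background that allow no fold. With the 2 p53 genotypes weighted equally, Eif2ak2 (0.50, adjusted p = 0.0527) and Trim30a (adjusted p = 0.0573) lost their calls, which left 9 higher and 2 lower.

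The 2 members that were lower were Stat2, a subunit of the factor that drives the type I response, and Zbp1, a sensor of Z-form nucleic acid. Stat2 ran from 5.57 over 7.61 to 8.26 in tumors and from 6.86 over 8.28 to 9.52 in healthy liver, a difference of -0.76 ± 0.23 (adjusted p = 0.0108). Zbp1 ran from 5.08 over 6.51 to 6.97 against 6.30 over 7.19 to 8.02, a difference of -0.73 ± 0.15 (adjusted p = 0.00044), but its second probe gave 0.24. Liver tumor 13, the dim array, was lowest for both. With each array scaled by its median instead of its quantiles, which moved all genes by 0.23, neither was called (-0.31 and -0.23), and 14 members were higher and 0 lower, with all genes splitting into 2734 higher and 439 lower against 1699 and 1643. Irf1, Irf7 and Irf9, the interferon regulatory factors of the list, differed by -0.17 ± 0.20, 0.22 ± 0.36 and -0.20 ± 0.19 and were not called (adjusted p = 0.533, 0.689 and 0.457). Irf7 ran from 5.58 over 7.79 to 8.87 in tumors and from 5.13 over 7.40 to 8.89 in healthy liver, Irf9 from 8.11 over 9.17 to 9.86 against 7.96 over 9.34 to 10.00, and Irf1 from 10.01 over 11.35 to 12.38 against 10.29 over 11.57 to 12.45. The ranges of these 3 factors overlapped over most of their length. Isg15, the ubiquitin-like modifier, differed by 0.56 (adjusted p = 0.0975). By role, 8 of 19 effectors were higher, with Mx1 and Trim30a, detected on no healthy liver, among them. Also higher were 1 of 4 sensors, 1 of 6 regulators and 1 of 2 chemokines. Of the GTPases 0 of 5 were higher (Gbp2, Gbp3, Igtp, Irgm1 and Ifi47, from -0.24 to 0.30), too few genes to set against all genes.

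The array labelled healthy liver 1 was low for many members: its median deviation from the healthy mean was -0.97, against -0.22 to 0.69 in healthy livers 2 to 10. Without it the same 13 members were called, 11 higher and 2 lower, and without liver tumor 13 the counts were also 11 and 2. Ifi27l2a lost its call without healthy liver 2 or healthy liver 4 (highest adjusted p = 0.0704). Each bead chip carries several arrays, and only the chip here called G held both groups, with 2 tumors of 1 p53f/+ animal and 3 livers, healthy liver 1 among them; within it 11 of the 13 called members had the same sign as over all chips, while Eif2ak2 (-0.03) and Trim30a (-0.06) did not.

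Some markers of other cell types also differed between liver tumors and healthy liver. Of 13 macrophage markers measured (of 15 listed), 7 were higher in tumors, led by Cd14 at 4.00, and 1 was lower; their summed intensity was 3260 to 40900 in healthy liver, the highest being healthy liver 1, 4900 to 26700 in p53f/f and 11900 to 40800 in p53f/+ tumors. Of 7 neutrophil markers (of 10 listed) 5 were higher, with sums of 233 to 1390 in healthy liver, 502 to 20000 in p53f/f and 1230 to 7460 in p53f/+ tumors, and Ngp and Camp were detected on no healthy liver. Of 9 T and NK cell markers (of 14 listed) none was higher and Zap70 was lower (-2.10), with sums of 3070 to 5610, 1540 to 4470 and 1570 to 3870. The part of these cells in the results was not tested, and in bulk tissue fewer cells of a type and less RNA per cell cannot be told apart.

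Among other genes of the pathway, receptor subunits were higher in the liver tumors. Of 5 receptor genes measured (of 6 listed), 4 were higher: Ifnlr1 of the lambda receptor at 1.97, Ifngr1 of the gamma receptor at 1.31, Ifnar2 of the alpha and beta receptor at 0.67 and Il10rb, which pairs with Ifnlr1 and was detected in 17 of 28 tumors and no healthy liver, at least 1.08-fold higher (adjusted p from 3.33e-05 to 0.00679). Of 19 interferon genes listed 4 were measured, and Ifna1 (-0.41) and Ifna6 (-0.57), which share near-identical sequence with other alpha interferons, were lower. Of 12 genes of interferon induction (of 14 listed), the DNA sensor Cgas (1.15), its adaptor Sting1 (0.67) and the RNA sensor Tlr7 (0.86) were higher and none lower. Of 3 transducers the kinase Tyk2 was lower (-0.47), and of 7 inhibitors Pias1 was lower (-0.51).

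Between liver tumors of the 2 p53 genotypes no member passed the test. At an adjusted p under 0.05, 0 of 36 members were higher and 0 lower in p53f/f than in p53f/+ tumors in limma, against 0.138% higher and 0.337% lower of all genes; at an unadjusted p under 0.05 there were 4 (Rsad2, Trim30a, Ifi47 and Samd9l). Rsad2 came nearest, at -0.87 ± 0.29 (adjusted p = 0.124): it ran from 8.85 over 9.98 to 10.99 in 20 p53f/f tumors and from 9.57 over 10.76 to 11.99 in 8 p53f/+ tumors, and was -0.75 and -1.10 within the 2 chips, C and E, that held both genotypes. Without liver tumor 28 it alone was called (adjusted p = 0.0439). Over the members the median difference was 0.14, but 0.34 within chip C, -0.26 within chip E and -0.01 without liver tumor 13.

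In T-ALL many regulators, effectors, GTPases and both chemokines were lower than in healthy thymus. Of 34 measured members 20 were lower (58.8%) and 1 was higher, against 18.9% lower and 10.6% higher of 10354 genes, and the median difference was -1.25 against -0.06 over all genes. Trim30a was detected in no T-ALL and so could be kept only through the thymi. Of the other 33 members 19 were lower and 1 higher. The counts that follow include Trim30a. For 10 members the groups did not overlap, against 18.4% of all genes. Lower were 10 of 17 effectors, 4 of 6 regulators (Irf1, Irf7, Irf9 and Isg15), 3 of 5 GTPases (Gbp2, Igtp and Ifi47), 1 of 4 sensors (Dhx58) and both chemokines. The T-ALLs lay on 3 chips and the thymi on a further one, so no chip held both groups. With chip as a random block, 8 members were lower (Irf1, Ifit3, Oasl2, Trim30a, Samd9l, Gbp2, Igtp and Cxcl10) and 0 higher.

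**Figure D2:**
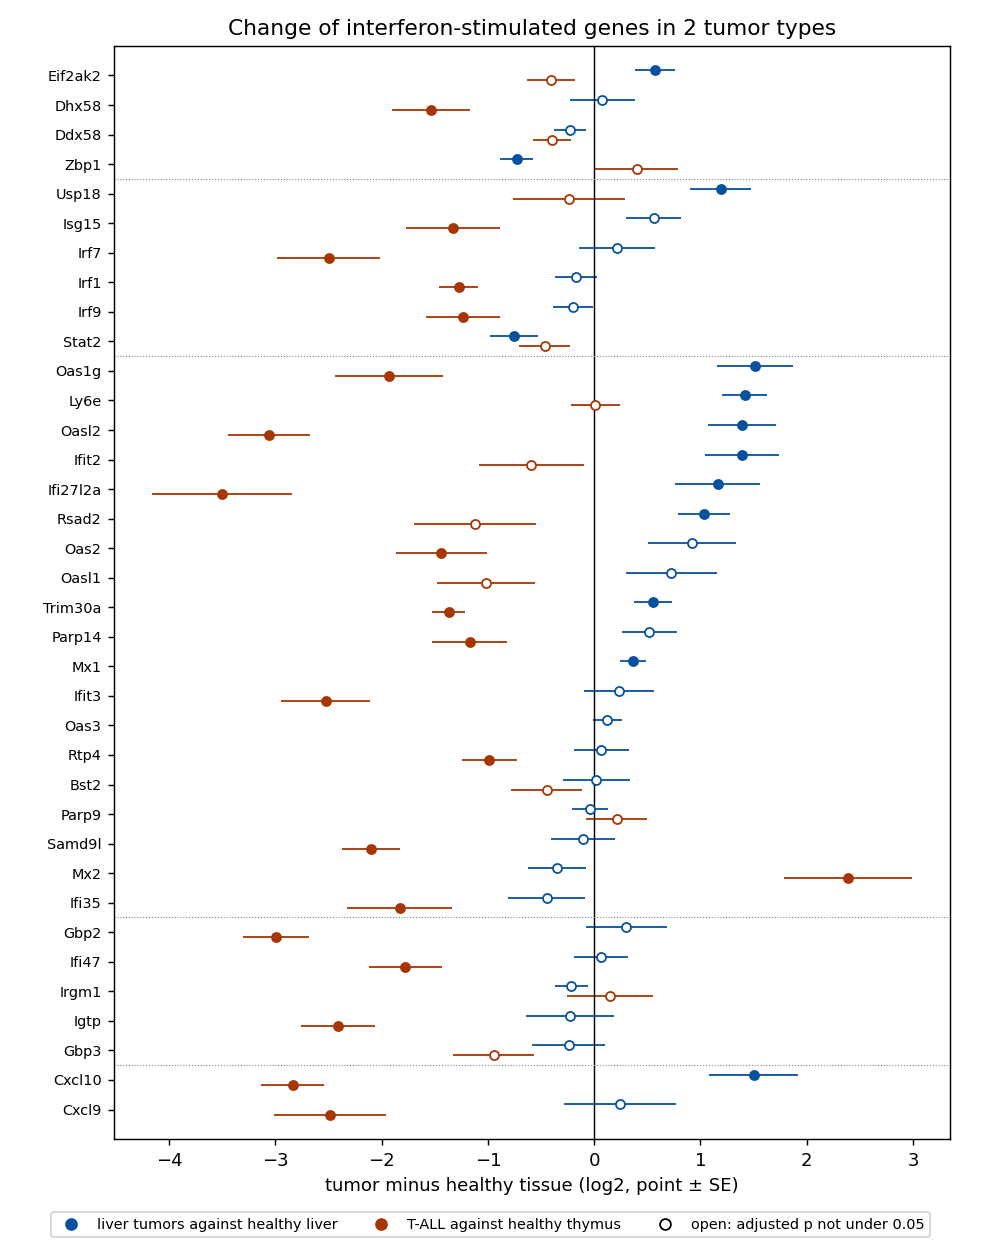
Difference of each measured member between tumor and healthy tissue on the log2 scale (point, with its SE as a bar), for liver tumors against healthy liver in blue and T-ALL against healthy thymus in brown, ordered by role; filled points have an adjusted p under 0.05. The liver differences lie between -0.76 and 1.51, the T-ALL differences between -3.50 and 2.39, with 20 filled points below 0 and Mx2 alone above.

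Ifi27l2a, whose product lies in membranes, was highest in healthy thymus at 10.64, 11.29, 10.92, 10.13 and 10.83 in the 5 thymi. In 8 T-ALLs it ran from 5.36 (T-ALL 3) over 7.22 to 10.27 (T-ALL 4), a difference of -3.50 ± 0.66 (adjusted p = 0.000932). All T-ALLs except T-ALL 4 lay below every thymus. Oasl2 was 8.48, 8.79, 8.95, 7.40 and 8.51 in the thymi and ran from 4.71 over 4.91 to 6.73 in the T-ALLs, of which 3 were detected, a difference of -3.06 ± 0.39 (adjusted p = 2.47e-05). Its second probe gave -1.48. The 2 groups did not overlap. Gbp2 was 11.62, 11.53, 11.43, 11.57 and 11.45 in the thymi and ran from 7.66 over 8.51 to 9.50 in the T-ALLs (-2.99 ± 0.31, adjusted p = 3.05e-06). The thymi were almost equal, and each T-ALL lay below all of them.

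Cxcl10 was 8.66, 8.57, 7.97, 8.01 and 8.45 in the thymi and ran from 4.75 over 5.55 to 6.45 in the T-ALLs, of which 4 were detected (-2.84 ± 0.30, adjusted p = 3.47e-06). Cxcl9, its relative that responds mainly to interferon gamma, was 9.63 to 10.26 in the thymi and 5.46 to 9.79 in the T-ALLs (-2.49 ± 0.53, adjusted p = 0.0023). For Cxcl10 the groups were apart, for Cxcl9 only T-ALL 4 reached the thymi. Ifit3 was 10.81, 11.11, 11.06, 10.91 and 10.94 in the thymi and ran from 7.23 over 8.41 to 9.66 in the T-ALLs (-2.53 ± 0.42, adjusted p = 0.000343), without overlap. Igtp, an immunity-related GTPase, was 11.66 to 11.88 in the thymi and 8.23 to 10.43 in the T-ALLs (-2.41 ± 0.35, adjusted p = 9.76e-05), likewise without overlap. Samd9l (-2.10), Oas1g (-1.93), Ifi35 (-1.83), Ifi47 (-1.78), Dhx58, the RNA sensor LGP2 (-1.53), Oas2 (-1.44), Parp14, an ADP-ribosyltransferase (-1.17), and Rtp4 (-0.99) were also lower. Trim30a was detected in 5 of 5 thymi and 0 of 8 T-ALLs and was at least 1.47-fold lower (adjusted p = 7.08e-06), where the bound sets the T-ALLs at the lowest signal detected on each array.

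Of the regulators, Irf7, which amplifies interferon alpha, was 8.15, 8.46, 8.79, 8.46 and 8.85 in the thymi and ran from 4.99 over 6.03 to 8.41 in the T-ALLs (-2.50 ± 0.49, adjusted p = 0.00123). T-ALL 2, the highest, lay among the thymi, and the next T-ALL was at 6.51. Irf1 was 12.97, 12.85, 12.97, 12.93 and 12.78 against 11.22 over 11.51 to 12.34 (-1.27 ± 0.19, adjusted p = 9.49e-05), without overlap, but of its 3 other probes 1 gave -1.49 and the dimmer 2 gave -0.30 and 0.09, which did not pass. Irf9 was 9.71, 9.74, 9.55, 9.27 and 9.63 against 7.75 over 8.21 to 10.15 (-1.23 ± 0.35, adjusted p = 0.0137), where T-ALL 2 again was the highest and lay above the thymi; its second probe gave -0.32, and with the mean of both probes the call was lost (-0.78, adjusted p = 0.177). Stat2, at 7.52 to 8.18 in the thymi and 6.93 to 7.65 in the T-ALLs, differed by -0.47 (adjusted p = 0.152). Isg15 was lower by -1.33 (adjusted p = 0.0351), but not in 7 of the 13 fits that left out 1 sample each. Usp18, Bst2 (tetherin), Ifit2, Rsad2, Ly6e, Zbp1 and Parp9 were not called, with differences from -1.13 to 0.40. For Parp9 the probe used gave 0.21 and a second probe -0.67 (limma adjusted p = 0.0469). Oasl1 and Gbp3 were not called either, but second probes gave -1.07 and -1.11 (limma adjusted p = 0.00503 and 0.0331). For Irgm1 the probe used gave 0.15 and a second, dimmer probe -2.09 (adjusted p = 0.00262), so that the direction of this gene depends on the probe.

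Mx2, a dynamin-like antiviral GTPase, was the 1 member higher in T-ALL. It was 7.11, 7.61, 7.97, 7.43 and 7.25 in the thymi and 10.35, 9.85, 6.35, 10.65, 11.13, 9.92, 10.39 and 10.25 in T-ALLs 1, 2, 3, 4, 6, 7, 8 and 9 (2.39 ± 0.60, adjusted p = 0.00744). Of the 8 T-ALLs 7 lay above every thymus and T-ALL 3 below every thymus. Its call remained in each of 13 fits without 1 sample, and was lost with chip as a random block (2.45, adjusted p = 0.132).

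The T-ALL counts changed little when doubted arrays were left out: 22 members were lower and 1 higher without T-ALL 4, 19 and 1 without T-ALL 7, and 22 and 1 without both. With the nearly blank T-ALL 5 included, 13 were lower and 0 higher. Cell type markers differed between these groups too, and the T cell markers among them are of the lineage of the T-ALLs themselves. Of 7 thymic epithelial markers measured (of 10 listed) 6 were lower, with a summed intensity of 12100 to 13300 in the thymi and 307 to 1990 in the T-ALLs, and Psmb11 and Prss16 were detected in no T-ALL. Of 7 neutrophil markers (of 10 listed) 6 were lower (3110 to 6510 against 200 to 1470), with Retnlg, Ngp and Camp undetected in T-ALL, of 4 dendritic cell markers (of 10 listed) Clec9a and Ccr7 (327 to 519 against 128 to 685), and of 10 T and NK cell markers (of 14 listed) 6 (103000 to 111000 against 44500 to 77400), with Klrd1 undetected. Of 10 macrophage markers (of 15 listed) Lyz2 was higher and Timd4 lower (6300 to 8480 against 7000 to 15400), and of 2 B cell markers (of 7 listed) Cd79b was lower (1050 to 1410 against 71.1 to 314). The part of these cells in the lower values was not tested.

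In the rest of the pathway, Ifnlr1 was lower in T-ALL (-2.57, adjusted p = 6.29e-05), the 1 of 5 receptor genes called. Of 4 interferon genes Ifna1 was higher (0.87, adjusted p = 0.0377). Of 4 transducers the kinase Jak2 (-0.89) and Stat3 (-0.68) were lower, and of 8 inhibitors Samhd1, which degrades nucleotides (-2.05), the phosphatase Ptpn6 (-1.17) and the RNA editor Adar (-1.07). Of 12 induction genes Irf5 (-1.46), Irf2 (-0.89), Ikbke (-0.89), Ticam1 (-0.62) and Irf3 (-0.52) were lower and none higher; Cgas and Sting1 were not called.

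**Figure D3:**
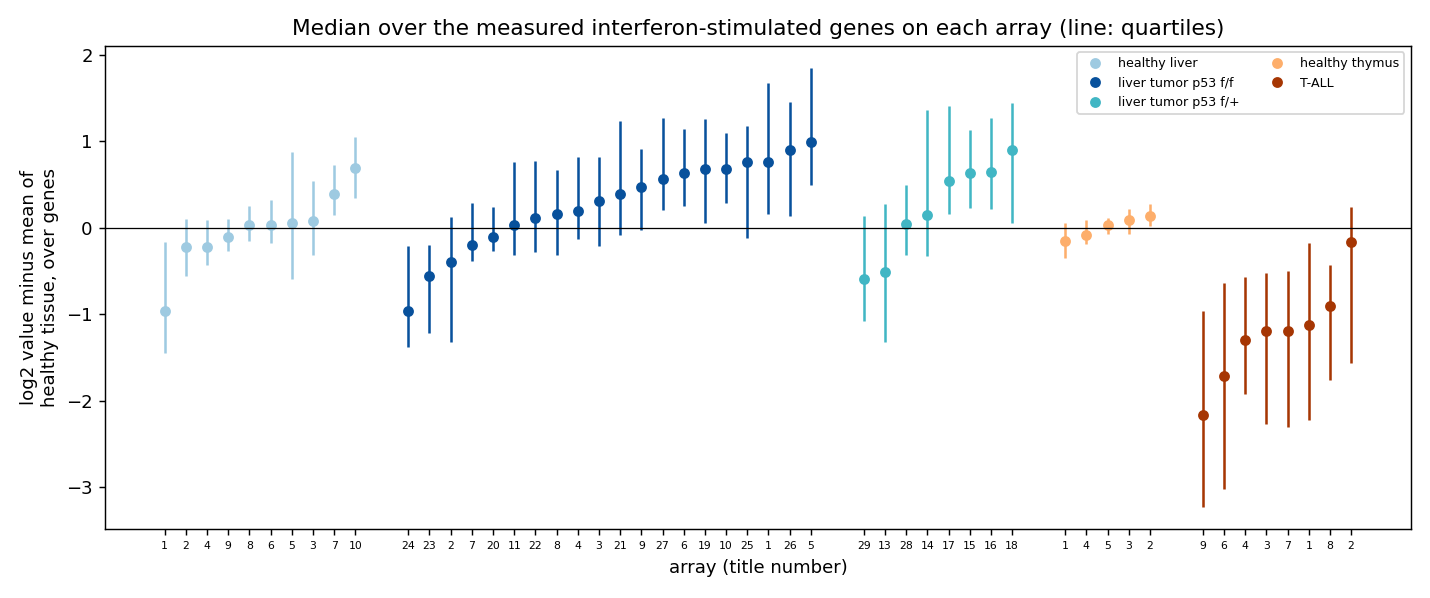
Median over the measured members of each array's deviation from the mean of its healthy tissue on the log2 scale (points, with the middle 50% of members as lines), by group. T-ALLs lie from -2.17 to -0.17 and healthy thymi from -0.15 to 0.14. Liver tumors, from -0.96 to 0.99, and healthy livers, from -0.97 to 0.69, spread on both sides of the healthy livers' mean.

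Set directly against each other on the common scale, liver tumors held higher levels than T-ALLs of most members that were called. Of 36 members 22 were higher and 4 lower, against 29.6% higher and 36.2% lower of 12307 genes, and the median difference was 0.88 against -0.07 over all genes. Mx1, Trim30a and Oas3 were detected in no T-ALL, and of the other 33 members 21 were higher and 4 lower. Cxcl10 ran from 6.92 over 8.85 to 11.25 in 28 liver tumors and from 4.74 over 5.47 to 6.30 in 8 T-ALLs, a difference of 3.47 ± 0.42 (adjusted p = 3.35e-10), and the 2 groups did not overlap. The RNA sensor Ddx58, or RIG-I, was the 1 other member without overlap (0.89 ± 0.15, adjusted p = 1.57e-06), against 14.1% of all genes. Ddx58 was detected in 2 of 8 T-ALLs, so its level there lay near background. No chip held arrays of both tissues. Cxcl9 ran from 6.80 over 10.38 to 13.73 against 5.40 over 7.25 to 9.56 (2.82 ± 0.53, adjusted p = 7.95e-06), Oasl1, an oligoadenylate synthetase-like protein, from 5.03 over 8.98 to 10.34 against 4.96 over 6.13 to 8.10 (2.60 ± 0.45, adjusted p = 1.26e-06), and Oas1g from 6.88 over 9.82 to 10.90 against 5.98 over 7.32 to 9.04 (2.04 ± 0.39, adjusted p = 9.82e-06). All 3 overlapped, with T-ALL 2 or T-ALL 4 the highest T-ALL.

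The 4 members lower in liver tumors were Mx2 at -2.51 ± 0.35 (adjusted p = 1e-08), Zbp1 at -0.67 ± 0.20 (adjusted p = 0.00311), Parp9, a partner of Parp14, at -0.62 ± 0.19 (adjusted p = 0.00414) and Ly6e at -0.58 ± 0.21 (adjusted p = 0.0152). Mx2 ran from 5.10 over 7.32 to 8.07 in liver tumors and from 6.21 over 10.07 to 10.94 in T-ALLs, and all T-ALLs but T-ALL 3 were above every liver tumor. Parp9 ran from 4.6 over 5.45 to 6.41 against 5.11 over 6.29 to 6.67, Zbp1 from 5.09 over 6.56 to 7.03 against 6.59 over 6.91 to 9.15, and Ly6e from 11.94 over 13.55 to 14.72 against 12.88 over 14.22 to 14.76. These 3 overlapped widely. Ly6e was not called with median scaling (-0.39, adjusted p = 0.321) or without T-ALL 9 (adjusted p = 0.0526), and with all probes of a gene averaged Zbp1 was instead 0.37 (adjusted p = 0.083); without T-ALLs 4 and 7, a choice made after seeing the data, it was -0.35 (adjusted p = 0.0852). The comparison holds the difference between the tissues as well: the hepatocyte markers were all higher in liver tumors (4 of 4 measured) and 8 of 10 T and NK cell markers lower. Of the receptors Ifnlr1 was higher and Ifnar2, Ifngr1 and Ifngr2 lower in liver tumors.

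The change from healthy tissue was tested for a difference between the 2 tumor types, as the liver change minus the T-ALL change. For 23 of 36 members it was higher in liver and for 2 lower, against 16.6% higher and 10.9% lower of 12307 genes. The median was 1.63 against 0.02 over all genes. The 23 include Oas3 and Trim30a, which were detected on no healthy liver and in no T-ALL, so that their values there are background. The 4 with the largest difference were Ifi27l2a (4.62 ± 0.76, adjusted p = 5.37e-06), Oasl2 (4.36 ± 0.57, adjusted p = 2.77e-08), Cxcl10 (4.24 ± 0.71, adjusted p = 6.06e-06) and Oas1g (3.41 ± 0.66, adjusted p = 7.69e-05), each higher in liver tumors and lower in T-ALL than in the healthy tissue. Mx2 (-2.70 ± 0.58, adjusted p = 0.000342) and Zbp1 (-1.13 ± 0.34, adjusted p = 0.00898) differed the other way. Of the 34 members measured in both tissues, 5 were higher in liver tumors and lower in T-ALL, Trim30a among them. A further 15 were lower in T-ALL and not called in liver, and 5 were higher in liver tumors and not called in T-ALL. Another 2 were lower in liver tumors alone, Mx2 was higher in T-ALL alone and 6 were called in neither. With chip as a random block 18 members were higher and 2 lower, and Dhx58, Eif2ak2, Irf9, Ifit2 and Cxcl9 lost their calls. With all probes of a gene averaged Irf1 (0.56, adjusted p = 0.215), Irf9, Dhx58 and Zbp1 lost theirs. Irf9 also lost its call without healthy liver 1 (0.85, limma adjusted p = 0.0527). All 5 groups enter this difference, so the level in healthy thymus, the highest of the groups for 17 members, bears on it as much as the tumors do.

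Tumors differed from each other in these genes more than in most genes. Among 28 liver tumors the median SD of the members was 0.77 on the log2 scale, against 0.49 over all genes, and 28 of 36 members lay above the latter. The 10 healthy livers were also varied in the members (0.73 against 0.56). Among 8 T-ALLs the median SD was 0.83 against 0.61 over all genes, with 25 of 34 members above it, whereas the 5 healthy thymi had 0.24 against 0.19. On the scale of the authors' log2 values the medians were 0.423 against 0.231 over all genes among 29 liver tumors, liver tumor 12 included, and 0.342 against 0.276 among the T-ALLs, with 26 of 36 and 24 of 34 members above the median gene. Cxcl9 was the most variable member in liver tumors (SD 1.58), from 6.74 in liver tumor 13 over 10.30 to 13.74 in liver tumor 5. Oasl1 (SD 1.24) ran from 5.02 in liver tumor 2 over 8.90 to 10.26 in liver tumor 25, and Cxcl10 (SD 1.16) from 6.86 to 11.19. The least variable were Ddx58 (SD 0.27, from 5.63 over 6.23 to 6.80), Zbp1 (0.36) and Mx1 (0.36, at or near background). In T-ALL the most variable were Ifi27l2a (1.60), Mx2 (1.48) and Rsad2 (1.39, from 6.21 in T-ALL 9 over 8.76 to 10.22 in T-ALL 4), and the least Trim30a (0.15, undetected), Stat2 (0.26) and Ddx58 (0.27, detected in 2 of 8).

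**Figure D4:**
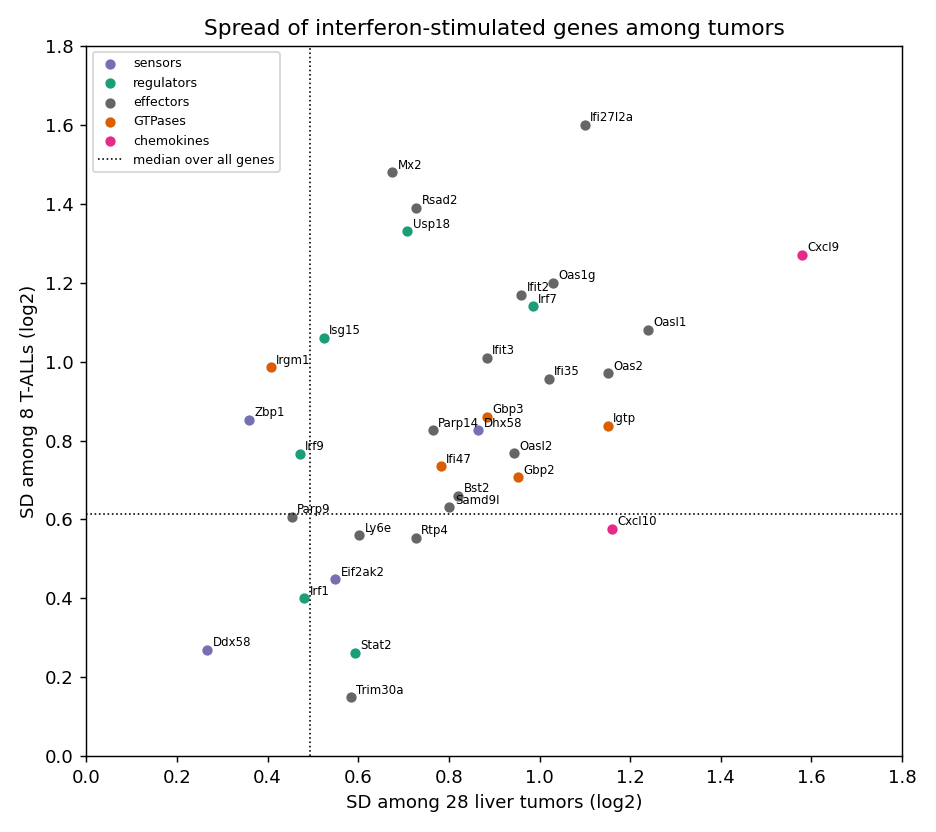
SD of each member among 28 liver tumors (horizontal) and 8 T-ALLs (vertical), log2 scale, colored by role; dotted lines mark the median SD over all genes, 0.49 and 0.61. Cxcl9 lies farthest right and Ifi27l2a highest, and Ddx58 lies low on both axes.

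The members varied together among liver tumors. Over the 28 tumors 587 of 630 pairs of members correlated positively, with a median r of 0.39, against 0.000705 between members and other genes; the tumors share chips and, for 8 animals, a host, and averaging by animal gave 0.42. The GTPases with Cxcl9 and Irf1 correlated more with each other (7 genes, median r 0.70) than the other members did (28 genes, with Cxcl10 in neither set, 0.37), and the median across these sets was 0.43; among the T-ALLs it was 0.17 within the 7 genes, 0.27 within 26 others and 0.22 across. The most alike pairs were Oas1g and Parp14 (r = 0.91), Igtp and Cxcl9 (0.87) and Dhx58 and Irf7 (0.87). The members nearest to Irf7 after Dhx58 were Oasl1 (0.83) and Bst2 (0.82), and that nearest to Igtp after Cxcl9 was Irf9 (0.86). Among the 8 T-ALLs the median r was 0.26, with 408 of 561 pairs positive, and the highest was that of Ifit3 and Oas1g (0.99). Zbp1, Samd9l and Irgm1 correlated negatively with Ly6e there (-0.87, -0.91 and -0.83), and T-ALL 4, the dim array, was the highest for all 3 and the lowest for Ly6e.

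**Figure D5:**
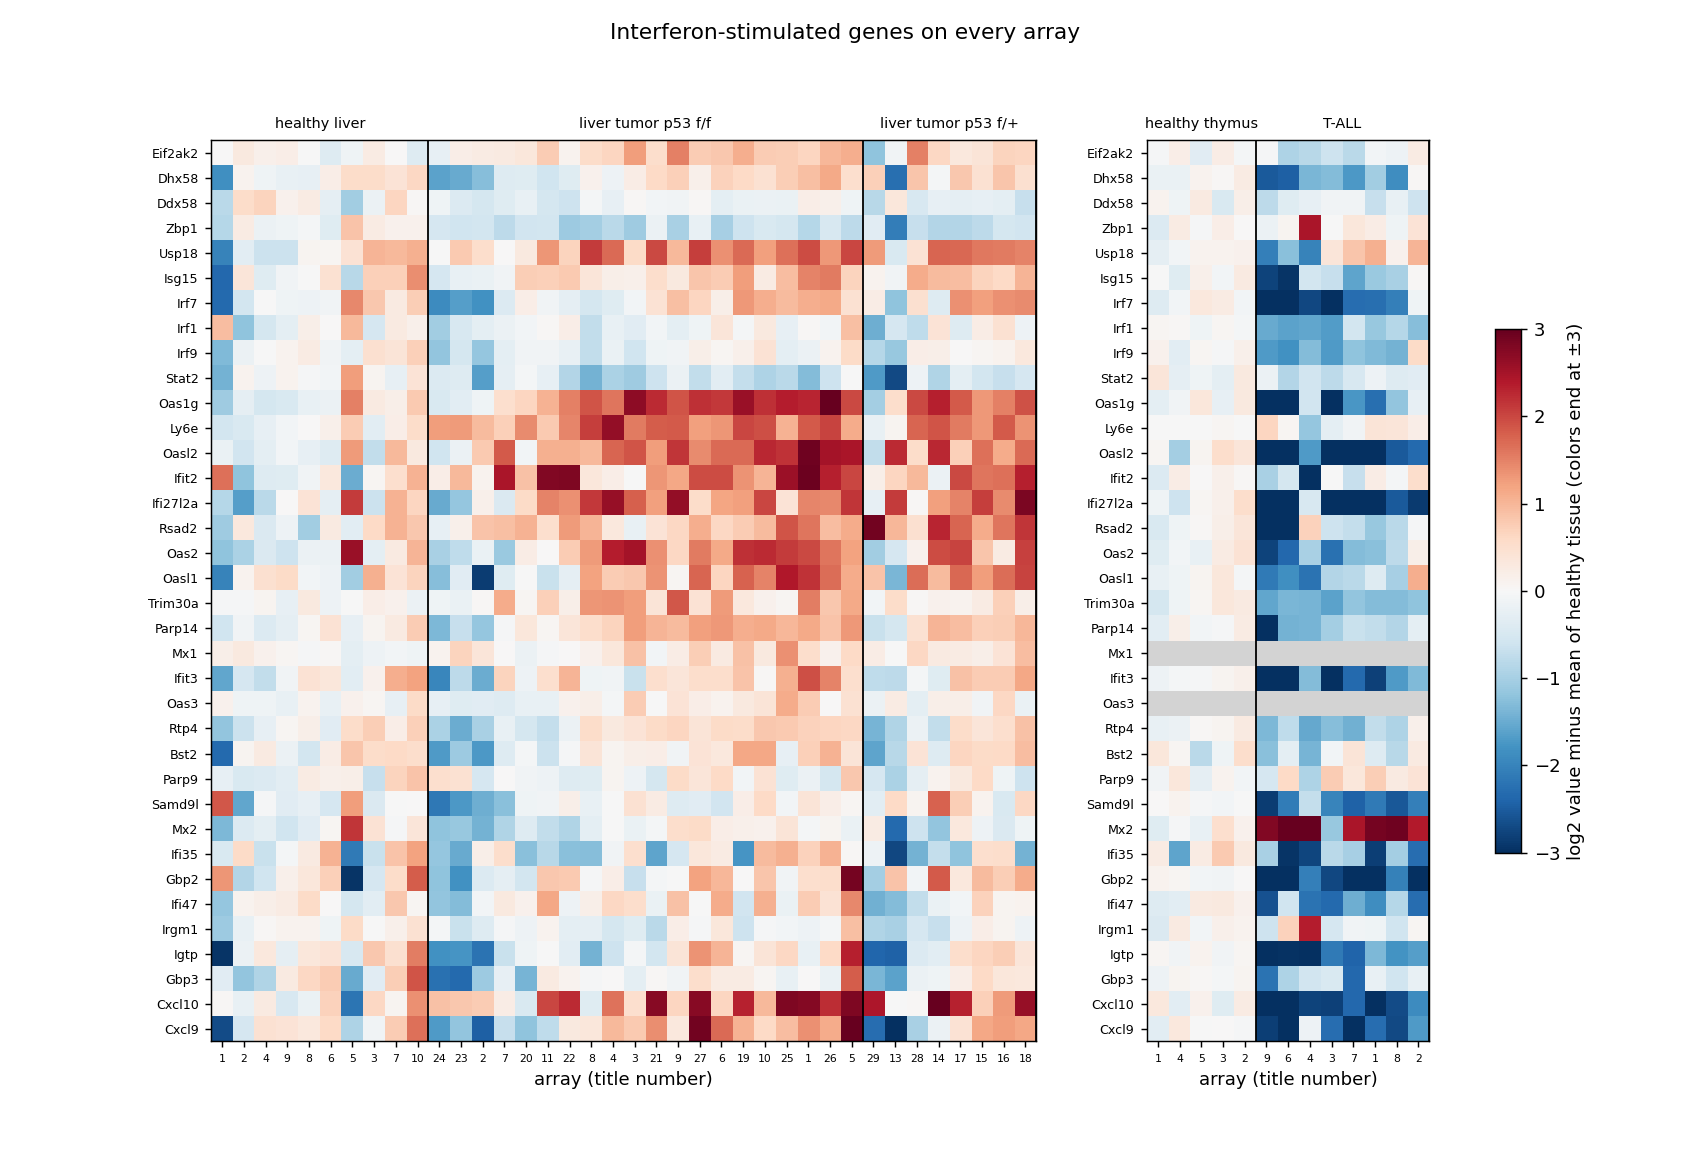
Deviation of each member (rows, by role) from the mean of the healthy tissue on each array (columns, by group and within it by the array's median), log2 scale, with colors ending at ±3; grey cells were not measured. Healthy liver 1 and liver tumors 24, 23 and 29 are blue over most rows, liver tumors 5, 18 and 26 red over most rows, and T-ALLs blue over most rows with Mx2 red in all but T-ALL 3.

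Single tumors stood far apart in the level of the whole set. Healthy livers did so too, with median deviations from the healthy mean of -0.97 in healthy liver 1 and -0.22 to 0.69 in the others. In liver tumor 5 (p53f/f) 32 of 36 members were above the healthy mean, 18 of them by over 1, and the median deviation was 0.99. In liver tumor 24 (p53f/f) 5 were above it and 17 were below it by over 1, with a median of -0.96. The p53f/+ tumors spanned nearly the same range, from -0.59 in liver tumor 29 to 0.90 in liver tumor 18. Liver tumors 1 and 2, of 1 animal and 1 chip, had medians of 0.76 and -0.40. Over the 8 animals with 2 tumors, the root mean square difference of the members between the 2 tumors had a median of 1.00 (0.54 to 1.91), and over 370 pairs of tumors from different animals it was also 1.00 (0.37 to 2.31). T-ALL 9 was lowest, with a median deviation of -2.17 and 24 of 34 members below the thymic mean by over 1, and T-ALL 2 was nearest to the thymi at -0.17, with 15 members above their mean and 12 below it by over 1. Macrophage marker sums were low in liver tumors 24 (4900) and 23 (5520) and 24400 in liver tumor 5, but 40800 in liver tumor 13, whose members had a median deviation of -0.51, and the part of these cells in the spread was not tested.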

How the data were processed

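RNA of 53 samples was measured on Illumina bead arrays. The authors deposited, for each array, a fluorescence intensity per probe, summarised over beads and not normalized, and a detection score, 1 minus the p-value against negative control beads. The software behind these values is not given in the sources used here. The deposited series table holds the authors' log2 values, which share 1 quantile distribution among liver arrays and another among thymic arrays; the submitters' processing notes name limma. Of 45281 probes, 34885 had 1 gene symbol in the platform annotation, 18 several and 10378 none listed. A signal column and a detection column (2 columns) matched no sample and were not used, liver tumor 12 had no signal column, and T-ALL 5 was left out as nearly blank.

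Intensities were background corrected (normexp from the detection scores, offset 16), quantile normalized and set on the log2 scale in limma 3.58.1 (R 4.3.3, statmod 1.5.0), separately for 38 liver arrays and 13 thymic arrays, and jointly for 51 arrays where tissues were compared. Genes detected (score over 0.95) on at least 5 arrays were kept, by the probe with the highest mean signal. Groups were compared with lmFit and eBayes (trend, robust), with animals as a random block (correlation 0.186 in liver, 0.215 jointly), since 8 animals gave 2 tumors, and Benjamini-Hochberg adjustment over all genes; called means an adjusted p under 0.05. In the mean of all liver tumors the p53 genotypes were weighted by their numbers of tumors. The fits were tested on simulated data with 200 changed genes, of which 97% with a log2 change of 2 were recovered in liver and 78% in thymus, and 74% and 32% of those with a change of 1.

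Where nothing says otherwise samples are separate animals, and p-values measure only the spread between these samples. The number of arrays limits the precision. The members and gene lists were chosen with earlier results of these data known. Values are given for the 6 largest called differences each way against healthy tissue, the 4 largest between tumor types, Irf1, Irf7, Irf9 and Stat2, the 3 most and least variable members and the called pathway genes. A detected gene set against a group with no detected array has only a bound, against the lowest detected signal. Alternatives were the authors' log2 values, median scaling, offset 50, other detection filters, the mean of all probes, chip and replicate blocks, tumors averaged by animal, equal weights for the p53 genotypes, and arrays left out.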

Additional observations from a re-analysis of the deposited data

Results flagged for a closer look

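In 23 of 140 combinations of a member and a group of 5 to 10 samples, the highest or lowest sample lay apart from the others by Dixon's test, where chance gives about 7. The log2 value is given against the range of the other samples of its group, and many fall on few arrays. Healthy liver 1 was low for Dhx58 (6.82 against 8.42 to 9.28), Irf7 (5.13 against 6.91 to 8.89), Irf9 (7.96 against 8.99 to 10), Bst2 (7.94 against 9.73 to 11.12), Igtp (8.05 against 10.52 to 12.53) and Irgm1 (10.96 against 11.83 to 12.61). Healthy liver 5 was high for Mx2 (9.57 against 6.08 to 7.87) and low for Cxcl10 (5.12 against 6.84 to 8.68), and healthy liver 10 was high for Oas3 (5.56 against 4.75 to 5.12). Liver tumor 13, the dim array, was low for Dhx58 (6.4 against 8.61 to 9.5), Zbp1 (5.08 against 6.28 to 6.82) and Oasl1 (6.5 against 8.73 to 9.89) among the p53f/+ tumors. T-ALL 4, also dim, was high for Zbp1 (9.36 against 6.74 to 7.33), Samd9l (11.17 against 9.04 to 9.9) and Irgm1 (14.48 against 11.52 to 12.81) and low for Ifit2 (5.54 against 7.79 to 9.28). T-ALL 2 was high for Irf7 (8.41 against 4.99 to 6.51), Irf9 (10.15 against 7.75 to 8.38) and Rtp4 (6.68 against 4.99 to 5.78). T-ALL 3 was low for Mx2 (6.35 against 9.85 to 11.13) and T-ALL 9 for Parp14 (8.18 against 9.75 to 10.88). Among the thymi, healthy thymus 4 was low for Ifi35 (6.46 against 8.29 to 8.85), and healthy thymus 3 was high for Ly6e (14.1 against 14.01 to 14.02), a gap that is small in size.

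For 25 members the change from healthy tissue differed between liver tumors and T-ALL by the test of the difference itself (limma, adjusted p under 0.05), given as the liver change minus the T-ALL change on the log2 scale. Oas3 and Trim30a were not detected in some of the groups and their values rest on background levels. Among the sensors the difference was 1.56 for Dhx58, 0.96 for Eif2ak2 and -1.13 for Zbp1. Among the regulators the difference was 1.25 for Irf1, 2.62 for Irf7, 1 for Irf9 and 1.86 for Isg15. Among the effectors the difference was 1.98 for Ifit2, 2.75 for Ifit3, 4.36 for Oasl2, 3.41 for Oas1g, 2.31 for Oas2, 0.85 for Oas3, -2.7 for Mx2, 2.12 for Rsad2, 4.62 for Ifi27l2a, 1.83 for Trim30a, 1.36 for Ly6e, 1.72 for Parp14 and 2.1 for Samd9l. Among the GTPases the difference was 3.34 for Gbp2, 2.28 for Igtp and 1.75 for Ifi47. Among the chemokines the difference was 2.65 for Cxcl9 and 4.24 for Cxcl10.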

How the results depend on the processing

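Counts are of members called at an adjusted p under 0.05 in limma. The replicate block kept only arrays whose replicate number occurred in each group compared, so its counts rest on fewer arrays. The shared numbers were 10 against healthy liver, 4 in T-ALL against thymus, 8 between tumor types and 4 for the difference of changes. Against healthy liver, 11 higher and 2 lower became 14 and 0 with median scaling, and 11 and 1 with the mean of all probes; within chip G Eif2ak2 was -0.029 and Trim30a -0.063. In T-ALL against thymus, 1 higher and 20 lower became 2 and 21 with no detection filter, 0 and 8 with chip as a random block, 0 and 13 with T-ALL 5 included, and 0 and 12 with the replicate block; with the mean of all probes Irgm1 was -0.97. Between tumor types, 22 higher and 4 lower became 21 and 2 with T-ALL 5 included, where Ly6e was 0.094, and 17 and 2 with the replicate block; with the mean of all probes Zbp1 was 0.37, Usp18 0.87 and Irgm1 1.08. For the difference of changes, 23 higher and 2 lower became 28 and 1 with median scaling, 20 and 1 with the mean of all probes, 18 and 2 with chip as a random block, 18 and 1 with T-ALL 5 included, and 11 and 0 with the replicate block. The median SD of members was 0.423 (liver tumors) and 0.342 (T-ALLs) with the authors' log2 values, against 0.773 and 0.832. The causes were not tested.

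Leaving out 1 sample at a time gave 10 to 12 higher and 2 lower against healthy liver, 0 higher and 0 to 1 lower between genotypes (1 without liver tumor 28), 1 higher and 17 to 22 lower in T-ALL, 20 to 24 higher and 3 to 4 lower between tumor types, and 22 to 25 higher and 2 lower for the difference. With median scaling, of all genes called, 18.5% were higher in T-ALL against 36%, 85.8% for the difference of changes against 60.4%, and 91.2% between genotypes against 29.1%, and the median of all genes was -0.26 in T-ALL and 0.42 for the difference. The same replicate numbers in different groups did not pair the samples (correlations of deviations from -0.043 to 0.191 in liver and from -0.103 to 0.21 in thymus), and the replicate block gave 9 higher and 2 lower against healthy liver. No paired analysis was possible for the 2 genotypes because they share no numbers. Between genotypes the count of all genes called was small and varied, from 0 to 86 higher against 16. The authors' log2 values were not run across tissues.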

Other observations

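Across 20 animals with liver tumors (tumors averaged by animal), 12 relations between a member and a marker sum were computed, chosen after seeing the data. Cxcl9 was correlated with the sum of T and NK cell markers (Pearson's r = 0.621, permutation p = 0.00333, adjusted p = 0.04; Spearman's rho = 0.553, permutation p = 0.013, adjusted p = 0.0782). Without the 2 animals farthest from the median of the marker sum r was 0.472, and after centring each chip it was 0.595. Igtp gave r = 0.57 (permutation p = 0.00883, adjusted p = 0.053) and rho = 0.553 (permutation p = 0.0122, adjusted p = 0.0782), with r = 0.553 without the 2 farthest animals and 0.581 after centring each chip. The other 10 relations had adjusted permutation p from 0.207 to 0.908 for r.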
